A study of Homo sapiens with 10 samples.

Results

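The genes described here are 10 nuclear genes whose proteins copy mitochondrial DNA into RNA or decide how long that RNA lasts. They were picked by symbol, as POLRMT, TFAM, TFB1M, TFB2M, LRPPRC, SLIRP, MTPAP, PNPT1, SUPV3L1 and FASTKD2, from 60554 genes in the tables, and each symbol matched 1 gene. Of the 10, 9 passed the filter on low counts and were among the 11640 genes tested; TFB2M did not pass. The question was whether any of them changed in libraries in which the mitochondrially encoded mRNAs were lower.

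The libraries came from Caco-2, a human colon carcinoma line with features of enterocytes. All of the cells, controls included, descended from a stable clone with dCas9-KRAB, a Cas9 that binds DNA without cutting and carries a repressor domain, and were infected with a second lentivirus that held a guide plasmid. The plasmid was empty in 5 libraries (gCtl), held guide g1 against the long non-coding RNA LHFPL3-AS2 in 3 libraries and held guide g2 against the same RNA in 2. No time in culture is given in the labels, and nothing in them says that the libraries of a group came from separate infections, so the p-values measure the spread between these libraries, which may be technical. The targeted RNA was also assayed by qPCR, which is not analysed here. In these libraries it did not check the labels: LHFPL3-AS2 lay between 0.840 and 3.73 reads per 1000000 of the library (RPM) in gCtl and between 2.03 and 6.01 RPM in the libraries labelled g1 or g2, a log2 fold change of 0.61 (SE 0.42, edgeR adjusted p = 0.381). These levels rest on few estimated counts, 4.39 to 20.7 per library in gCtl and 13.2 to 44.0 in the others. Every direction below is therefore one between libraries as labelled.

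Each library held between 3838803 and 8730468 estimated counts. The reads were of the QuantSeq type, which start near the polyA tail, so a gene is counted at its 3′ end. Of 11 epithelial markers, 10 were found, among them EPCAM at 645 to 872 TMM-scaled counts per 1000000 (CPM), whereas CDX1 did not exceed 0.359 CPM. Markers of 9 genes of immune, endothelial and mesenchymal cells summed to between 6.0 and 11.8 CPM in gCtl and between 8.07 and 20.3 CPM in the libraries labelled g1 or g2, and none of them was above 5 CPM in all 10 libraries. The endothelial marker PECAM1 was called higher in g1, at a mean of 7.03 CPM against 2.84 CPM in gCtl (log2 fold change 1.29, edgeR adjusted p = 0.0214). Of the epithelial markers, KRT20 was called higher in g2 (log2 fold change 1.91, adjusted p = 0.00307) and KRT18 lower (-0.78, adjusted p = 0.0494). The PECAM1 call was lost without g1 replicate 2 or 3 (adjusted p up to 0.116) and the KRT18 call without any of gCtl replicates 1, 2 and 4, g1 replicate 1 and g2 replicates 1 and 2 (adjusted p up to 0.155). Both calls were also lost in a test against a fold of 1.5 (glmTreat), and that of KRT18 with DESeq2 size factors in edgeR. With limma on log2(TPM + 1), TPM being transcripts per 1000000, PECAM1 was not called in g1, at a log2 fold change of 0.06. The part of these markers in the results below was not tested. In bulk RNA, fewer cells of a kind and less RNA per cell cannot be told apart.

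The mitochondrial genome carries 13 protein-coding genes and genes for 2 rRNAs and for tRNAs. The RNAs of the 13 are counted here gene by gene and called mRNAs. The genome is copied from a few promoters into long RNAs that are then cut apart. POLRMT is the RNA polymerase; TFAM bends and packs the DNA and brings the polymerase to the promoter; TFB2M opens the promoter. TFB1M, a relative of TFB2M, methylates the small rRNA. Once cut, the mRNAs are held by the LRPPRC and SLIRP pair, receive their tails from MTPAP, and are degraded by the RNA helicase SUPV3L1 together with PNPT1, a polynucleotide phosphorylase. FASTKD2 binds the large rRNA and is needed for the mitochondrial ribosome.

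The promoters of these genes are shown because genes of the mitochondrial transcription machinery are known targets of NRF1 and of ETS factors such as GABP. A second reason was that POLRMT and TFAM were lower in the libraries with a guide, TFAM by just under a fold of 1.5. TFB1M did not pass the test, and TFB2M had too few counts to be among the tested genes. The windows are RefSeq sequences of GRCh38.p14, of 300 bases each, from 250 before to 50 after the annotated start; all 10 genes had one, and for SLIRP the first of its listed windows was used. An NRF1-type motif, GCGCANGCG on either strand, was searched; it is nearly its own reverse complement, so matches on both strands can overlap. It was found in 5 of the 10 windows, those of POLRMT, TFAM, TFB2M, the rRNA methyltransferase TFB1M and MTPAP. The motif was in 7.52% of 35116 promoter windows of all genes and 17.4% of the 9011 tested genes that had a window. The windows with a match are printed 5′ to 3′ with the matched bases in capitals.

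POLRMT, chr19:633488-633787, minus strand: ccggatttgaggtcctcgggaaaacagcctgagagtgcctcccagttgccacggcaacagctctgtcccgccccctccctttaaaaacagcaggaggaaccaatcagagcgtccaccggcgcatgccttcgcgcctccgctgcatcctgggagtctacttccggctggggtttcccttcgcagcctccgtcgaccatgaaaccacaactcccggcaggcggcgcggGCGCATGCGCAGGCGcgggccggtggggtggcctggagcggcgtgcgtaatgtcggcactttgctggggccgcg
TFAM, chr10:58385160-58385459, plus strand: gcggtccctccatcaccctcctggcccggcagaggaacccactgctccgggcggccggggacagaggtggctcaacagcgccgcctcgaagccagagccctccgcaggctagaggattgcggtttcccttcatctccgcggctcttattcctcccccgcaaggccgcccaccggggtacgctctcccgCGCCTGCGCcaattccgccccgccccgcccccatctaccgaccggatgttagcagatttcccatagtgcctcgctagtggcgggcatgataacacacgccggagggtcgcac
TFB1M, chr6:155314435-155314734, minus strand: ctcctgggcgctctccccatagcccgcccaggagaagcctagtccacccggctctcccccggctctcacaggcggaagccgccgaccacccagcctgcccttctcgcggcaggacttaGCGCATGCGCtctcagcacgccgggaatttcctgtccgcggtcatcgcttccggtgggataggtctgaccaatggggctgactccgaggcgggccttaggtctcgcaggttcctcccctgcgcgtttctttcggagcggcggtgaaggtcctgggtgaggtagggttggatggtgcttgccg
TFB2M, chr1:246566212-246566511, minus strand: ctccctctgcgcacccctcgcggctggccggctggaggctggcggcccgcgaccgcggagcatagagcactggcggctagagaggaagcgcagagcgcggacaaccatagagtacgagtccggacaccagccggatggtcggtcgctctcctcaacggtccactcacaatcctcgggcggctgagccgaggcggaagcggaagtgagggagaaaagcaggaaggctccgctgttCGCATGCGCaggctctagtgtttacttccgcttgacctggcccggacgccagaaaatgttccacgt
MTPAP, chr10:30349229-30349528, minus strand: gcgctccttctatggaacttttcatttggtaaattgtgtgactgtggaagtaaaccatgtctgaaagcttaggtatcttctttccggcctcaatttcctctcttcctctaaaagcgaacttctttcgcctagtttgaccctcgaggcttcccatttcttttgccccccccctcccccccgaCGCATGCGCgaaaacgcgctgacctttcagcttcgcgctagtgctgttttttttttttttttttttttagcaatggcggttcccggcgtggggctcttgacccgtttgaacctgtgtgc

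The match closest to the start was that of TFB2M, which ended 8 bases before it, and the POLRMT window held 3 overlapping matches between bases -24 and -10. TFAM had its match at bases -62 to -54, MTPAP at -69 to -61 and TFB1M at -132 to -123. An ETS-type motif, CCGGAAG on either strand, was in the windows of POLRMT, TFB1M and SLIRP against 10.3% of all windows and 22.8% of those of tested genes, and it did not overlap the NRF1-type matches. Windows of LRPPRC, PNPT1, SUPV3L1 and FASTKD2 held neither run of letters. Among the 1567 tested genes with the NRF1-type match, the median log2 fold change between the libraries labelled g1 or g2 and gCtl was -0.01, and 11.6% were called lower, beside a median of 0.02 and 11.0% over all tested genes.

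**Figure D1:**
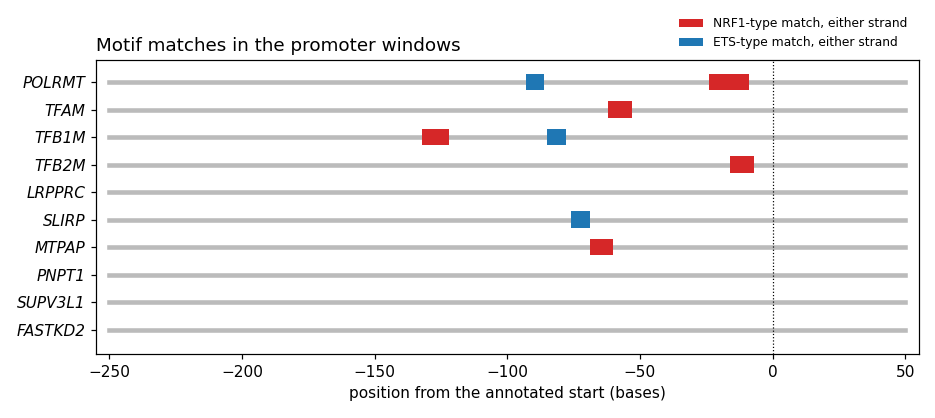
Positions of the NRF1-type (red) and ETS-type (blue) matches in the promoter window of each gene, in bases from the annotated start (dotted line). POLRMT, TFAM, TFB1M, TFB2M and MTPAP carry the red match, which lies between 132 and 8 bases before the start, and POLRMT, TFB1M and SLIRP carry the blue one.

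Levels were compared between genes per transcript length, as transcripts per 1000000 (TPM) in the 5 gCtl libraries. TFAM was the most abundant at 482 ± 92.4 TPM (SD, n = 5), followed by SLIRP at 344 ± 88.2 TPM, and the ranges of this pair overlapped. LRPPRC at 82.5 ± 16.3 TPM and SUPV3L1 at 72.4 ± 5.57 TPM came next and also overlapped. POLRMT, TFB1M and PNPT1 could not be ordered, at 38.5 ± 10.2, 36.5 ± 7.43 and 36.2 ± 7.72 TPM. Below them lay FASTKD2 at 15.5 ± 2.96 TPM and MTPAP at 13.2 ± 1.46 TPM, again with overlapping ranges, and TFB2M was the lowest at 0.876 ± 0.230 TPM. Between these 5 steps no gCtl value of a higher step lay within the range of a lower one. In 3′-end data the counts of a gene need not scale with its length, and part of this order turned without that scaling. As RPM, TFAM stayed first at 331 and TFB2M last at 1.26 RPM, but LRPPRC at 198 RPM came before SLIRP at 102 and PNPT1 at 92.8 RPM, followed by SUPV3L1 at 53.3, MTPAP at 44.6, FASTKD2 at 38.8, TFB1M at 33.6 and POLRMT at 14.5 RPM. For LRPPRC and SLIRP, whose proteins act as a complex, which mRNA was the more abundant therefore depended on the scale: SLIRP was higher in TPM and LRPPRC in RPM, each in all 5 gCtl libraries.

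The place of POLRMT in that order rests on which transcript its counts were given to. Of its 566 counts, 88.2% were assigned to a transcript of 469 bases with a retained intron that shares the 3′ end of the gene, and 8.03% to coding transcripts. Counts of SUPV3L1 went to a short processed transcript of 666 bases at the 3′ end (62.3%) and to a retained-intron transcript that ends 15836 bases before it (35.2%). In these 2 genes a length-scaled level is that of a short annotated transcript and not of the coding mRNA.

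A gene was called where the edgeR adjusted p over all tested genes was at most 0.05 and the fold change at least 1.5. In the comparison of the 5 libraries labelled g1 or g2 with the 5 gCtl libraries, 1 of the 9 tested members was called lower, POLRMT, and 0 were called higher. Over all tested genes 11.0% were called lower and 8.14% higher, so the share of members was near the background. Without a minimum fold change, TFAM and SLIRP were called lower too. The median log2 fold change of the 9 was -0.31, and that of all tested genes 0.02. With library totals in place of TMM scaling, 69.4% of the calls over all genes were lower, against 57.5% here, and POLRMT, TFAM and SLIRP were called lower.

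For g1 alone, POLRMT and TFAM were called lower and 0 of 9 higher, beside 9.94% and 6.81% over all tested genes. For g2 alone, POLRMT and FASTKD2 were called lower and 0 higher, beside 13% and 10.7%. Both comparisons use the same gCtl libraries. Where the libraries of a single guide lay apart from the others, the share of all tested genes with that pattern was not counted. Such a separation is given below as a description of the values alone. Of the members, FASTKD2 was the only call between g2 and g1, lower in g2, where 3.42% of tested genes were called lower and 1.56% higher. The plot of levels by library shows these values gene by gene.

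POLRMT, the polymerase, fell in the libraries of both guides. Its level was 11.7, 19.6, 11.9, 15.6 and 11.3 CPM in gCtl, 8.33, 5.49 and 7.06 CPM in g1, and 8.25 and 5.09 CPM in g2. Every library labelled g1 or g2 lay below every gCtl library. The mean CPM was 14.0 ± 3.60 (SD, n = 5) for gCtl against 6.84 ± 1.51 (SD, n = 5), a log2 fold change of -1.03 (SE 0.23, edgeR adjusted p = 0.00519). Against gCtl the log2 fold change was -1.0 (SE 0.27, adjusted p = 0.0157) for g1 and -1.08 (SE 0.31, adjusted p = 0.0193) for g2, and between the guides it was -0.08 (SE 0.34, adjusted p = 0.920).

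These levels rest on 26 to 107 counts per library. The call for g1 was lost without g1 replicate 2 (adjusted p = 0.0689) or g1 replicate 3 (adjusted p = 0.0519), and that for g2 without g2 replicate 2, where the log2 fold change was -0.76 (adjusted p = 0.197). A test against a fold of 1.5 (glmTreat) did not call POLRMT in any comparison, with adjusted p of 0.129 for both guides, 0.231 for g1 and 0.157 for g2. The 469-base transcript at the 3′ end averaged 12.3 RPM in gCtl and 6.16 RPM in the libraries labelled g1 or g2, and it held 81.4 to 87.7% of POLRMT counts in gCtl and 86.5 to 97.1% in the others. POLRMT lies at chr19:617224-633604 (GENCODE 29, GRCh38), on the minus strand.

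Over the 10 libraries the 3 tested genes with levels most like POLRMT, by Pearson's r of log2 CPM, were ABHD14A (r = 0.968), RPS10 (r = 0.968), a protein of the small cytoplasmic ribosomal subunit, and CARD10 (r = 0.961). All 3 were lower in the libraries labelled g1 or g2, by log2 fold changes of -0.98, -0.97 and -0.71. The points share the same libraries and the same difference between groups, so r describes likeness alone.

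TFAM, the packaging and activating factor, was also lower, by less. It stood at 387, 362, 266, 348 and 237 CPM in gCtl, at 208, 227 and 185 CPM in g1 and at 224 and 226 CPM in g2. The lowest gCtl library, replicate 5, was only just above the highest of the others, and the groups did not overlap. POLRMT and TFAM were the 2 tested members with all 5 libraries labelled g1 or g2 below all 5 gCtl libraries, a pattern of 8.33% of all tested genes. With both guides in 1 group TFAM dropped by 33.1% (log2 fold change -0.58, SE 0.15, edgeR adjusted p = 0.0121), just under the minimum fold change. It was called for g1 (log2 fold change -0.63, SE 0.17, adjusted p = 0.0157) and not for g2 (-0.51, SE 0.19, adjusted p = 0.0630), and g2 did not differ detectably from g1 (0.12, SE 0.21, adjusted p = 0.792).

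Single libraries decided the TFAM calls. For both guides together TFAM was called when gCtl replicate 3 or 5, g1 replicate 2, g2 replicate 1 or g2 replicate 2 was left out, with adjusted p between 0.00411 and 0.0192. For g1 the call was lost without gCtl replicate 1 or 2, where the log2 fold change dropped to -0.55 or -0.58, and without g1 replicate 1 or 3, where the adjusted p was 0.0522 or 0.0680. For g2 it was gained without gCtl replicate 5, at a log2 fold change of -0.60 (adjusted p = 0.0197). With all libraries TFAM was called for g2 in 4 of 12 other settings. These were edgeR with library totals alone and limma on log2(RPM + 1), log2(RPM + 0.1) or log2(TPM + 1) (adjusted p between 0.0261 and 0.0302). Counts of TFAM were divided over coding transcripts of 663, 973 and 5414 bases with different 3′ ends. The 663-base one had means of 195 RPM in gCtl and 115.8 RPM in the libraries labelled g1 or g2, its ranges of 141 to 233 and 95.0 to 145 RPM overlapping, and the 973-base one had 66.1 and 57.5 RPM. The 5414-base one, which alone ends at the 3′ end of the gene, had 68.8 RPM (33.6 to 106) in gCtl, 26.0 RPM (24.9 to 28.0) in g1, below all of gCtl, and 45.3 RPM (36.8 to 53.8) in g2, within it. TFAM lies at chr10:58385022-58399221, on the plus strand; its processed copy TFAMP1 held at most 4 counts in a library.

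TFB1M, the rRNA methyltransferase, had 32.5, 35.1, 36.8, 34.2 and 23.9 CPM in gCtl, 24.5, 27.0 and 22.5 CPM in g1, and 26.2 and 30.8 CPM in g2. All of the g1 and g2 values were below 4 of the gCtl libraries, and gCtl replicate 5 lay among them. The log2 fold change of -0.31 (SE 0.15, edgeR adjusted p = 0.147) did not pass the test, nor did that of g1 (-0.40, SE 0.17, adjusted p = 0.108) or of g2 (-0.19, SE 0.19, adjusted p = 0.502). TFB1M lies at chr6:155257509-155314493 on the minus strand, and TIAM2 and CLDN20 overlap it on the other strand.

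TFB2M, the factor that opens the promoter, was close to the limit of these libraries, with 4 to 14 counts in each and 78 in all. Its level was 1.25, 1.10, 1.74, 0.963 and 1.06 CPM in gCtl, 1.0, 0.844 and 1.46 CPM in g1, and 2.51 and 1.60 CPM in g2. Without the filter on low counts its log2 fold change was 0.27 (SE 0.47, edgeR adjusted p = 0.731) for both guides and 0.71 (SE 0.62, adjusted p = 0.475) for g2, neither of which passed the test. It lies at chr1:246540560-246566324, on the minus strand.

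The ratio of TFB2M to its partners within a library was compared because the 3 proteins act at 1 promoter. On the log2(RPM + 0.5) scale the ratio of TFB2M to POLRMT was -3.07 ± 0.49 (SD, n = 5) in gCtl, and in the libraries labelled g1 or g2 it was -1.92 ± 0.48 (SD, n = 5), which is 1.15 higher. The exact two-sided permutation test gave p = 0.0159, and 0.0661 after Benjamini-Hochberg adjustment over the 5 ratios compared. TFB2M to TFAM differed by 0.74 (exact permutation p = 0.0397, adjusted 0.0661) and TFB1M to TFB2M by -0.48 (exact permutation p = 0.0952, adjusted 0.119). None of the 5 ratios passed the adjusted threshold, and the 3 with TFB2M rest on its few counts.

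LRPPRC, which binds mitochondrial mRNAs along their length, was nearly level. It had 216, 186, 181, 206 and 169 CPM in gCtl, 162, 195 and 177 CPM in g1, and 193 and 155 CPM in g2. The groups overlapped, and the log2 fold change was -0.12 (SE 0.12, edgeR adjusted p = 0.520), with -0.11 (SE 0.14, adjusted p = 0.633) for g1 and -0.14 (SE 0.16, adjusted p = 0.554) for g2. 

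SLIRP, its small RNA-binding partner, was lower and more even in the libraries with a guide. It had 114, 96.2, 80.7, 126 and 73.7 CPM in gCtl, 67.8, 67.5 and 67.8 CPM in g1, and 71.0 and 74.0 CPM in g2. Values of g1 lay below all of gCtl, and g2 replicate 2 was level with gCtl replicate 5, the lowest control. The log2 fold change was -0.49 (SE 0.15, edgeR adjusted p = 0.0265) for both guides, -0.53 (SE 0.17, adjusted p = 0.0358) for g1 and -0.44 (SE 0.19, adjusted p = 0.109) for g2, each below the minimum fold change. Without gCtl replicate 5 it was called lower for both guides (log2 fold change -0.59, adjusted p = 0.00921) and for g1 (-0.64, adjusted p = 0.00926), and without gCtl replicate 3 for g1 (-0.60, adjusted p = 0.0334).

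Within a library LRPPRC exceeded SLIRP by 0.98 ± 0.20 (SD, n = 5) on the log2(RPM + 0.5) scale for gCtl, compared with 1.33 ± 0.18 (SD, n = 5) for the libraries labelled g1 or g2. The difference of 0.35 had an exact permutation p of 0.0317 (adjusted 0.0661), and it was 0.11 (adjusted p = 0.625, exact permutation test) as a ratio of TPM. The counts of SLIRP moved between its coding transcripts of 408 and 285 bases, which end at the same base: the longer one held 60.4 to 87.2% in gCtl and 45.6 to 71.6% in the others. LRPPRC lies at chr2:43886508-43996005 on the minus strand. SLIRP lies at chr14:77708071-77761104 on the plus strand, where SNW1 overlaps it on the other strand.

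MTPAP, the mitochondrial polyA polymerase, was higher in g2 and level in g1. It had 48.0, 39.3, 45.2, 41.2 and 42.4 CPM in gCtl, 41.0, 42.6 and 43.8 CPM in g1, and 59.0 and 67.9 CPM in g2. Both g2 libraries were above the other 8. The log2 fold change was 0.56 (SE 0.15, edgeR adjusted p = 0.0117) for g2 and -0.02 (SE 0.13, adjusted p = 0.921) for g1. Between g2 and g1 it was 0.58 (SE 0.16, adjusted p = 0.0493), just below the minimum fold change. The g2 comparison was called without gCtl replicate 1 (0.59) or g2 replicate 1 (0.65), and g2 against g1 without gCtl replicate 5 (0.59) or g2 replicate 1 (0.68). With limma on log2(TPM + 1) the g2 value was 0.24, the lowest over the alternatives. MTPAP lies at chr10:30309801-30374448, on the minus strand, and 96.7% of its counts were on 1 coding transcript.

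SUPV3L1, the helicase of the RNA-degrading complex, had 49.2, 44.6, 52.3, 57.5 and 54.7 CPM in gCtl, 51.7, 65.6 and 57.5 CPM in g1, and 60.4 and 76.5 CPM in g2. Both g2 values were above all of gCtl, whereas g1 overlapped it. No comparison passed the test; the log2 fold change was 0.27 (SE 0.13, edgeR adjusted p = 0.153) for both guides, 0.17 (SE 0.14, adjusted p = 0.429) for g1 and 0.41 (SE 0.16, adjusted p = 0.0727) for g2.

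PNPT1, the exonuclease of the same complex, had 104, 81.0, 85.8, 103 and 75.3 CPM in gCtl, 83.7, 116 and 109 CPM in g1, and 94.1 and 85.9 CPM in g2. The groups overlapped, with log2 fold changes of 0.12 (SE 0.14, edgeR adjusted p = 0.556) for both guides, 0.20 (SE 0.15, adjusted p = 0.383) for g1 and 0.01 (SE 0.18, adjusted p = 0.986) for g2. The sign of the last value changed with the scaling. SUPV3L1 to PNPT1 within a library differed by 0.14 between the groups on the log2(RPM + 0.5) scale (exact permutation p = 0.437, also after adjustment). A PNPT1 transcript annotated as subject to nonsense-mediated decay held 16.3 to 53.4% of the gene's counts in gCtl and 0 to 22.4% in the others, and a second one of that type held 0 to 3.75% and 0 to 19.2%. Summed, the transcripts of that type held 16.3 to 53.4% in gCtl and 0 to 40.0% in the others, so the ranges overlapped, and a retained-intron transcript held 6.91 to 14.0% and 12.2 to 24.7%. SUPV3L1 lies at chr10:69180232-69209099 on the plus strand and PNPT1 at chr2:55634265-55693910 on the minus strand. The processed copy PNPT1P1 held 6.02 counts in all 10 libraries.

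FASTKD2, which binds the large mitochondrial rRNA, was lower in g2 alone of the guides. It had 45.7, 34.9, 38.4, 39.7 and 28.9 CPM in gCtl, 30.5, 34.4 and 36.7 CPM in g1, and 20.4 and 18.0 CPM in g2. The g2 values lay below all 8 of the others, and g1 lay within gCtl. The log2 fold change was -0.96 (SE 0.20, edgeR adjusted p = 0.00301) for g2, -0.14 (SE 0.16, adjusted p = 0.579) for g1 and -0.42 (SE 0.20, adjusted p = 0.140) for both together. The test of g2 against g1 gave -0.82 (SE 0.21, adjusted p = 0.0364).

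That last call was lost without any of g1 replicates 1, 2 and 3 (adjusted p = 0.0604, 0.0866 and 0.0841), g2 replicate 2 (0.140) or gCtl replicates 2, 3 and 4 (0.0525, 0.0577 and 0.0587), with log2 fold changes from -0.71 to -0.89. One coding transcript held 91.7% of FASTKD2 counts and averaged 36.7 RPM in gCtl, 30.4 RPM in g1 and 15.7 RPM in g2. FASTKD2 lies at chr2:206765357-206792509, on the plus strand, where MDH1B overlaps it on the other strand.

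**Figure D2:**
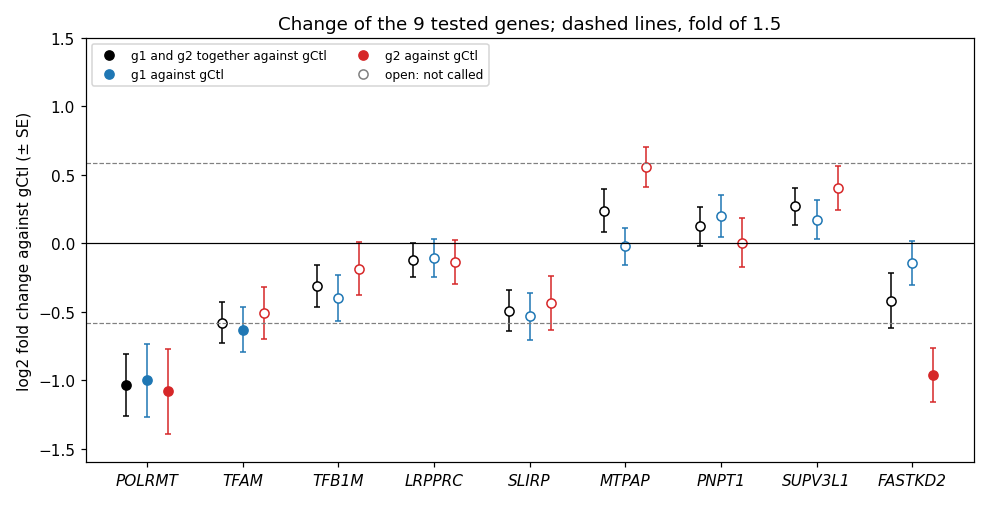
Log2 fold change against gCtl (y axis, points, with SE as bars) of the 9 tested genes for both guides together (black), g1 (blue) and g2 (red); filled points were called and dashed lines mark a fold of 1.5. POLRMT lies near -1 in all 3 comparisons, whereas FASTKD2 lies at -0.14 for g1 and -0.96 for g2, and MTPAP at -0.02 and 0.56.

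Replicate 5 of gCtl was the lowest control for 7 of the 10 genes: TFAM, POLRMT, TFB1M, LRPPRC, SLIRP, PNPT1 and FASTKD2. The share of all tested genes that were lowest in this control was not counted, so whether the pattern sets the members apart was not tested. Without gCtl replicate 5 the members called for both guides were POLRMT, TFAM and SLIRP. The calls over all tested genes also rose, from 2232 to 2388. Replicates of a group differed by more than sampling noise in each of 14 pairs, with a chi-square of 4.28 to 26.0 per degree of freedom, so no library was counted more than once.

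The mRNAs that these factors make and keep were lower in the same libraries. Together the 13 mitochondrially encoded mRNAs took 5.27, 9.56, 7.84, 7.39 and 8.16% of the estimated counts in gCtl, 5.02, 5.13 and 3.10% in g1, and 2.58 and 1.5% in g2. All libraries labelled g1 or g2 lay below all of gCtl, though gCtl replicate 1 and g1 replicate 2 nearly met. Per 100 counts of nuclear coding genes the groups overlapped, with 8.09 in g1 replicate 2 and 7.91 in gCtl replicate 1. The mean share was 7.65 ± 1.56% (SD, n = 5) for gCtl against 3.47 ± 1.58% (SD, n = 5), a log2 difference of -1.25. The exact two-sided permutation test gave p = 0.00794, the smallest that 5 against 5 libraries can give, and p = 0.0159 per nuclear coding counts. For g1 the log2 difference was -0.80 (exact permutation p = 0.0357), and it did not pass the test per nuclear coding counts (-0.79, exact permutation p = 0.0714). For g2 it was -1.93 (exact permutation p = 0.0952), the smallest p these numbers allow. Of the 13 mRNAs 10 were called lower for both guides, 8 for g1 and 13 for g2, beside 11.0%, 9.94% and 13% of all tested genes. Those not called for both guides were MT-ND2 (-0.86, edgeR adjusted p = 0.0556), MT-ND5 (-0.35, adjusted p = 0.336) and MT-CO1 (-0.57, adjusted p = 0.0329). MT-CO1 lay just under the minimum fold change. The MT-ATP8 call was lost with DESeq2, limma on log2(TPM + 1) or glmTreat, and without any of gCtl replicates 2 to 5, g1 replicate 3 or g2 replicate 1. MT-ND6 was lost without gCtl replicate 2. With glmTreat the calls of MT-ND4, MT-ND4L and MT-ND6 were lost too (adjusted p = 0.133, 0.171 and 0.439). The largest log2 fold changes for both guides were those of MT-ATP6 (-1.98), MT-ND3 (-1.80) and MT-ND1 (-1.72), which encode subunits of ATP synthase and of complex I.

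The 2 mitochondrial rRNAs, which come from the same long RNAs, took 13 to 16.1% of counts in gCtl and 10.5 to 17.2% in the others, and their log2 difference was -0.03 (exact permutation p = 0.841). They were read only where a primer for polyA found them, so these shares are those of the captured rRNA. The same holds for the mitochondrially encoded mRNAs, whose shares are those of captured mRNA. Whether their capture differed between the groups was not tested.

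Library by library, the mRNA share and the members were set side by side as values alone. Within gCtl, replicate 1 had the lowest share of mitochondrial mRNA (5.27%) and the highest TFAM (387 CPM), and replicate 5 had the lowest TFAM (237 CPM) with the second highest share (8.16%). Replicate 2 of gCtl was the highest in both share (9.56%) and POLRMT (19.6 CPM), and g2 replicate 2 was the lowest of the 10 libraries in both (1.5% and 5.09 CPM). In other libraries the order of share and POLRMT differed. Replicate 5 of gCtl had the lowest POLRMT of the controls (11.3 CPM). POLRMT was 5.49 CPM in g1 replicate 2, at a share of 5.13%, and 8.25 CPM in g2 replicate 1, at a share of 2.58%. Between the guides, the mRNA share was 4.42 ± 1.14% (SD, n = 3) in g1 and 2.04 ± 0.764% (SD, n = 2) in g2. POLRMT was 6.96 ± 1.43 and 6.67 ± 2.23 CPM and TFAM 207 ± 21.0 and 225 ± 1.5 CPM in these groups, whereas FASTKD2 was lower in g2, at 33.8 and 19.2 CPM, beside 37.5 CPM in gCtl. The difference in share between g2 and g1 had an exact permutation p of 0.2, which is the smallest for 3 against 2. The part of any member in the mRNA level was not tested.

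**Figure D3:**
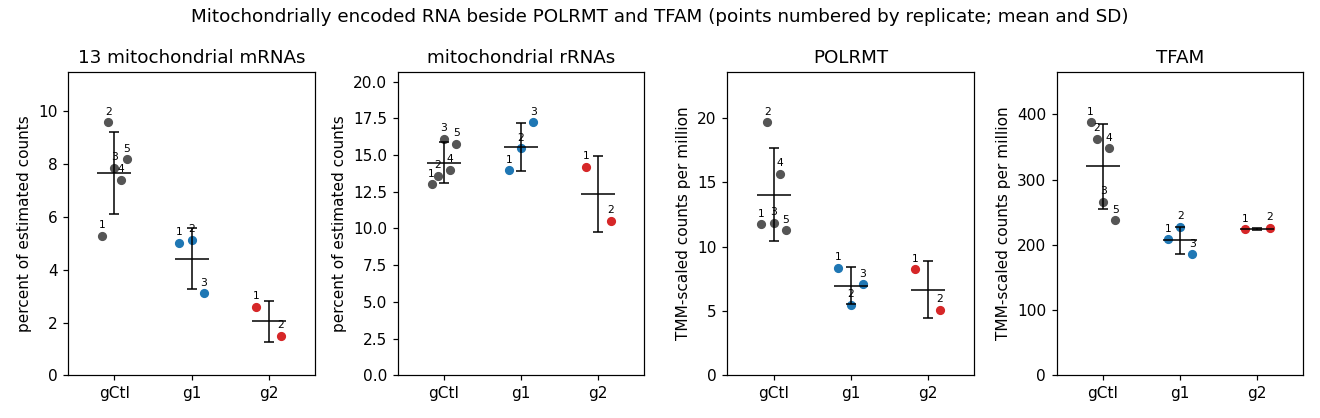
Share of counts on 13 mitochondrially encoded mRNAs and on 2 mitochondrial rRNAs (percent of a library's estimated counts), and the levels of POLRMT and TFAM (CPM), for each library, numbered by replicate, with the group mean and SD as bars. The mRNA share is 5.27 to 9.56% in gCtl and 1.5 and 2.58% in g2, the rRNA share overlaps between groups, and POLRMT and TFAM of g1 and g2 lie below gCtl.

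Other nuclear factors of the same steps were taken from lists, whose counts for both guides stand beside the 11.0% of all tested genes called lower and the 8.14% called higher. Of 15 further transcription and termination factors 14 were tested, and 1 was called lower for both guides, TOP1MT, the mitochondrial topoisomerase I, at a log2 fold change of -0.61 (SE 0.17, edgeR adjusted p = 0.0202). It had a mean of 23.8 CPM in gCtl and 15.7 CPM in the libraries labelled g1 or g2. The call was lost without gCtl replicate 2 (adjusted p = 0.0570) and, for a smaller fold, without gCtl replicate 5 or g1 replicate 2 or 3 (log2 fold changes of -0.56, -0.57 and -0.55). It was also lost with glmTreat (adjusted p = 0.824). The median of the 14 was -0.23, and 0 were called higher; 1 of 14 is no larger a share than that of all tested genes.

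Among 32 further factors of RNA processing and decay, 31 were tested, of which 7 were called lower and 1 higher for both guides; the median was -0.17. The largest falls were those of ERAL1, a chaperone of the small rRNA, at -1.43 (SE 0.45, edgeR adjusted p = 0.0308), of MRM1, which methylates the large rRNA, at -1.07 (SE 0.32, adjusted p = 0.0242), and of HSD17B10, a subunit of the mitochondrial RNase P that cuts tRNAs out of the long RNAs, at -0.97 (SE 0.25, adjusted p = 0.0112). ERAL1 and MRM1 had means of 5.74 and 5.18 CPM in gCtl, and their calls rested on single libraries: MRM1 was lost without gCtl replicate 1 (adjusted p = 0.0658), and ERAL1 without any of gCtl replicates 1 to 4, g1 replicate 3 or g2 replicate 2 (adjusted p between 0.0517 and 0.0824). ERAL1 was also lost with limma on log2(RPM + 0.1) (adjusted p = 0.0515). The single rise was that of FASTKD1, a relative of FASTKD2, at 0.75 (SE 0.21, edgeR adjusted p = 0.0177), which was -0.027 with limma on log2(TPM + 1) and was lost without gCtl replicate 3 (adjusted p = 0.0508). None of the genes called in this list for both guides was called with glmTreat (adjusted p between 0.178 and 0.662). In g2 alone 9 of the 31 were called lower and 2 higher, beside 13% and 10.7% of all tested genes, and in g1 alone 4 and 0, beside 9.94% and 6.81%.

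All 18 factors of mitochondrial translation were tested, and 1 was called lower for both guides: ICT1, a peptidyl-tRNA hydrolase of the mitochondrial ribosome, at -1.06 (SE 0.23, edgeR adjusted p = 0.00504), with a median of -0.11 over the list. Of 13 nuclear regulators of mitochondrial biogenesis 10 were tested, 0 were called lower and 1 was called higher, GABPB2, a subunit of the ETS-type factor GABP, at 0.72 (SE 0.21, adjusted p = 0.0221). That call was lost without gCtl replicate 1 or 3 (adjusted p = 0.0540 and 0.0530) or g2 replicate 2 (log2 fold change 0.47), and with limma on RPM or TPM (adjusted p between 0.0531 and 0.190). With glmTreat neither ICT1 nor GABPB2 was called (adjusted p = 0.117 and 0.565). The median of these 10 was 0.25, the only list with a median above 0 among those of mitochondrial factors.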

How the data were processed

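RNA of 10 Caco-2 libraries was sequenced after QuantSeq library preparation. What the authors deposited are estimated counts of 199169 GENCODE transcripts, 1 table a library, made with kallisto (version 42.5 in the submitters' processing notes), without normalization and not pooled. The study's supplement names GENCODE 24. The strand setting is not given in the sources used here, so overlapping genes on opposite strands cannot be told apart. Gene sums of these estimates were rounded for the tests.

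The filter kept 11640 genes that had a protein-coding transcript and exceeded 3 RPM in 20% or more of the libraries. They were fitted with edgeR 4.0.16 in R 4.3.3 (quasi-likelihood test, TMM, Benjamini-Hochberg adjustment over all of them). A fit with 2 groups compared both guides with gCtl (biological coefficient of variation 0.238), and one with 3 groups compared each guide with gCtl and g2 with g1 (0.205). CPM are TMM-scaled, RPM are relative to all counts of a library, and TPM were derived from transcript lengths. LHFPL3-AS2 was fitted among 23413 genes of all types with at least 10 counts. Shares and ratios were tested by exact permutation (two-sided, scipy 1.17.1), ratios with a pseudocount of 0.5. The programs were tested on simulated data.

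With 3838803 to 8730468 counts a library, 1 count is worth 0.115 to 0.261 RPM, which limits TFB2M. Replicate numbers follow the order of the samples and carry no meaning. The named genes are the 10 members, at most the 3 largest changes among the called genes of each list, and the 3 genes most like each member called for both guides. FASTKD1 and the mitochondrially encoded mRNAs beyond the 3 largest changes were added after their values were seen. The members and lists were chosen with earlier results of these data known. Gene positions are from GENCODE 29 (GRCh38). Alternatives were DESeq2 1.42.0, other scalings, filters, units and call rules, and each library left out in turn.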

Additional observations from a re-analysis of the deposited data

Results flagged for a closer look

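One result met the rule for a difference between the guides: FASTKD2 was lower in g2 than in g1 by a test of that difference, with a log2 fold change of -0.82 (SE 0.21, edgeR adjusted p = 0.0364), and the g2 libraries, at 20.4 and 18.0 CPM, were below all 3 of g1. Among the 10 genes and the share of mitochondrially encoded mRNA, no library of gCtl, or of the 5 labelled g1 or g2, lay apart from its group by Dixon's criterion (0.71 for 5 libraries), in 22 groups of values looked at.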

How the results depend on the processing

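No paired analysis was possible because the labels give no replicate numbers. Of the 414 values of members under other settings, 376 kept their direction and their side of the threshold, and so did 322 of the 360 with 1 library left out; the causes of the other changes were not tested. The members called for both guides were 1 as reported, 3 with library totals alone or without a minimum fold change, 2 with limma on log2(RPM + 1), log2(RPM + 0.1) or log2(TPM + 1) or without the mitochondrially encoded genes, and 0 with glmTreat, a test against a fold of 1.5. For g1 the 2 became 1 with limma on log2(TPM + 1) and 0 with glmTreat, and SLIRP was added without a minimum fold change. For g2 the 2 became 4 with library totals alone and 0 with glmTreat. TFAM was added for g2 with limma on log2(RPM + 1), log2(RPM + 0.1) or log2(TPM + 1), and MTPAP without a minimum fold change. For g2 against g1 the 1 became 2 with DESeq2, with its size factors in edgeR, without mitochondrially encoded genes or without a minimum fold change, and 0 with limma on log2(TPM + 1) or glmTreat. Over all genes glmTreat called 488, 506, 802 and 92 in the comparisons of both guides, g1, g2 and the guides with each other, where edgeR called 2232, 1950, 2757 and 580; the stricter null is part of that test's construction.

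With 1 library left out, the members called ranged from 1 to 3 for both guides, 0 to 3 for g1, 1 to 3 for g2 and 0 to 2 between the guides, and the genes called from 1256 (without g1 replicate 3) to 2260 (without gCtl replicate 5) for g1, 1498 (without g2 replicate 2) to 3112 (without g2 replicate 1) for g2 and 267 (without g1 replicate 1) to 859 (without g2 replicate 1) for g2 against g1. The mitochondrial mRNA share (log2 difference -1.43 to -0.99) and the 5 partner ratios stayed on their side of the threshold in these fits.

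Values of members that changed sign were small and not called. For g2, PNPT1 was -0.16 with library totals alone, -0.0034 without the filter on low counts, -0.14 with limma on log2(RPM + 1) and -0.15 on log2(RPM + 0.1). For g2 against g1, limma on log2(TPM + 1) gave 0.078 for LRPPRC, -0.055 for SLIRP, -0.19 for TFAM and -0.018 for TFB1M, and SLIRP was -0.015 with library totals alone, -0.015 on log2(RPM + 1) and -0.015 on log2(RPM + 0.1). FASTKD1, called higher for both guides, was -0.027 on log2(TPM + 1). With libraries left out MTPAP ranged from -0.062 to 0.015 for g1, LRPPRC from -0.31 to 0.021 and PNPT1 from -0.066 to 0.077 for g2, and LRPPRC from -0.19 to 0.14 and POLRMT from -0.45 to 0.25 for g2 against g1. Depth limits TFB2M, with at most 14 counts in a library.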
